A study of Mus musculus with 20 samples.

Results

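Long introns, here those of more than 5000 nt, were examined for how often they were already removed from RNA still bound to chromatin in murine erythroleukemia (MEL) cells, a mouse line of red cell precursors. Of the 11912 introns that had at least 10 reads in a condition, 1409 were that long (11.8%), and they lay in 835 genes. The rule used only length and read number, so the splicing values themselves did not choose the introns. Both groups were labelled as wild type. The uninduced group received no inducer, and the induced group was kept in 2% DMSO for 5 days, which starts red cell maturation in this line. Each group had 4 long-read samples, namely 2 biological replicates that were each run on 2 PacBio instruments. Chromatin-bound RNA had been freed of polyadenylated and ribosomal RNA before library making. The deposited tables give 1 line per intron and condition, so each condition is 1 pool of libraries with no replicate error, and every test below compares the pools and not the conditions. The other 12 of the 20 samples of the series were not analysed here.

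An intron is removed in successive cuts. The spliceosome first cuts at the 5′ splice site and ties the freed end to a branch point, and then joins the exons at the 3′ splice site, which nearly always ends in the letters AG. A polymerase needs more time to cross a long intron than a short one, so the 5′ site waits longer for its partner. Long introns are known to be common at the start of genes, where they often hold regulatory sequence.

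The measure used throughout is the co-transcriptional splicing efficiency (coSE). It is the number of reads spliced exactly at the tabulated junction divided by that number plus the number of unspliced reads, so 1 means that no unspliced read was seen. How much of an intron a read had to cover to be counted as unspliced is not given in the sources used here. The 1409 introns ran from 5005 to 129462 nt with a median of 8753 nt, against a median of 1033 nt over all introns with 10 reads. First introns made up 520 of them (36.9%), against 11.4% of introns of 5000 nt or less. Per the GENCODE annotation of the mouse mm10 genome, 1116 lay between coding exons, 250 in a 5′ UTR, 2 in a 3′ UTR and 41 in noncoding transcripts. At least 10 reads were present for 1178 in the uninduced pool, for 707 in the induced pool and for 476 in both. Median depth was 15 reads in each pool, at which 3 counts, taken as the upper limit that a count of 0 allows, equal 20% of the reads. Of 11 erythroid markers, 9 had reads in the uninduced pool, where Slc4a1 and Epb42 were at 0, and all 11 had reads in the induced pool, with summed observations of 877 and 9720.

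The splice sites of 723 members were listed in a second deposited table. They are shown for the introns on which the results below turn, 5′ to 3′, with the exon bases matched to GENCODE transcripts at all 723. A 3′ site is given as 20 intron bases and 3 exon bases, with the AG at the tabulated end in capitals, and with a second AG in capitals where the annotation has another 3′ splice site there. The first 5 of the following end in such a pair.
Hbs1l intron 4, 3′ site: tccttaattAGgaaaatcAGtta
Tpx2 intron 2, 3′ site: accatttcttccctcAGaAGaca
Larp4 intron 1, 3′ site: atttttttattgtttAGcAGgtg
Mdm4 intron 2, 3′ site: atgttttacgtttatAGcAGgtg
Tank intron 2, 3′ site: ttggttttttttgtcAGcAGact
Vps16 intron 1, 3′ site: ctggttgtctctgtgagtAGgaa
Kdsr intron 3, 3′ site: tgttttcttcctttgagcAGgtg
Clybl intron 1, 3′ site: cctagtcacttcccttgcAGgaa
Ank1 intron 2, 3′ site: tctctctcttctcctctcAGaac
Nedd4 intron 1, 3′ site: tttatttttttaaattatGGgta
The 5′ sites below, of 3 exon and 6 intron bases with the first intron bases in capitals, show a GT site (Ank1), GC sites (Rictor, Ankfy1) and a site with the letters of the minor spliceosome's class (Sptssa).
Ank1 intron 2, 5′ site: cagGTcagt
Rictor intron 3, 5′ site: aagGCaagt
Ankfy1 intron 4, 5′ site: gagGCaagt
Sptssa intron 1, 5′ site: tcaGTatcc

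Most long introns were spliced in nearly every read. Median coSE was 1 in both pools, and introns of 5000 nt or less had medians of 0.923 (uninduced) and 0.929 (induced). No unspliced read was seen at 691 of 1178 long introns in the uninduced pool (58.7%, 95% Wilson interval 55.8 to 61.4) and at 486 of 707 in the induced pool (68.7%, 65.2 to 72). The same held for 34.1% and 39.8% of the shorter introns. Intervals and limits here cover counting error only, and introns are not replicates, so no test of this difference is given. Read length was not examined here, and whether unspliced molecules were detected equally well at long and shorter introns was not tested. At matched depth the order was the same: with 20 to 49 reads, 183 of 348 long introns (52.6%) and 665 of 2398 shorter ones (27.7%) had no unspliced read in the uninduced pool.

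The share with no unspliced read was higher in each longer class below 5000 nt. In the uninduced pool it was 20.7% for introns of up to 100 nt, 40.4% for those over 1000 and up to 2000 nt, and 48.7% for those over 2000 and up to 5000 nt. Above the limit it was 57.3% up to 10000 nt, 57% over 10000 and up to 20000 nt and 63.1% (55.1 to 70.4) over 20000 and up to 50000 nt. The 40 introns of more than 50000 nt had 31 without an unspliced read (77.5%, 62.5 to 87.7). In the induced pool the classes above the limit had 66.7% (61.9 to 71.1), 68.2% (61.4 to 74.3) and 81.5% (72.4 to 88.1), and 8 of the 15 introns over 50000 nt had no unspliced read (53.3%, 30.1 to 75.2). No class was tested against another, and the part of read length in these shares was not tested. Just inside the 5000 nt limit, Prpf39 intron 5 at 5005 nt had 9 of 14 uninduced reads spliced and Mdh1 intron 1 at 5011 nt had 19 of 20. Just outside it, Anxa4 intron 2 at 5000 nt had 15 of 15 uninduced reads spliced and Ptbp3 intron 7 at 4997 nt had 7 of 12.

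**Figure D1:**
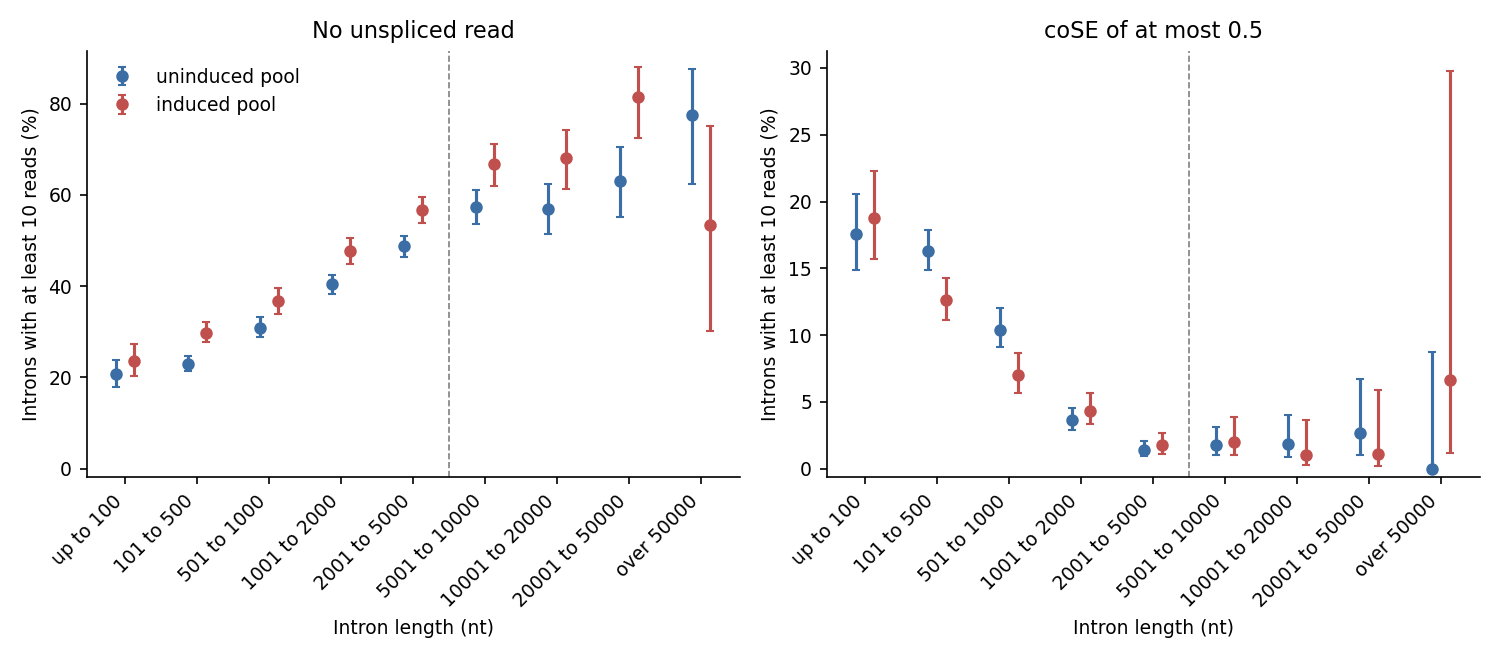
Percent of introns with at least 10 reads that had no unspliced read (left) or a coSE of at most 0.5 (right), by intron length class in nt, in the uninduced (blue) and induced (red) pools, with 95% Wilson intervals. The dashed line marks 5000 nt: right of it 53.3 to 81.5% of introns had no unspliced read, and the widest intervals belong to introns over 50000 nt, of which 40 and 15 were measured.

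The longest members show this at the scale of whole genes. Intron 1 of Clybl, which encodes the mitochondrial citramalyl-CoA lyase, is 129462 nt long (chr14:122181782-122311243, plus strand), and its junction was spliced in 20 of 20 reads in the uninduced pool and 2 of 2 in the induced pool. Intron 2 of Mbnl1, a gene for a splicing regulator, spans 122420 nt and was spliced in 11 of 12 uninduced reads. Intron 1 of Gphn, which encodes gephyrin, a synaptic scaffold and molybdenum cofactor enzyme, spans 116510 nt and was spliced in 12 of 12. All of these left few or no unspliced reads in a pool of 10 to 20 reads. Zeb1, a zinc finger repressor, has an intron 1 of 113075 nt that was spliced in 12 of 12 uninduced and 14 of 14 induced reads. Fars2, the mitochondrial phenylalanine-tRNA synthetase gene, had 10 of 10 and 2 of 2 spliced reads at its intron 4 of 95442 nt. Smyd3, a lysine methyltransferase gene, had 29 of 30 and 19 of 19 at its intron 1 of 94369 nt.

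The deepest members give the most precise values. Intron 2 of Pkhd1l1, a gene for a large membrane protein, had 136 of 138 uninduced and 216 of 218 induced reads spliced. Its intron 4 had 102 of 103 and 164 of 166. Intron 2 of Ank1, the gene of the red cell ankyrin that anchors the skeleton to the membrane, had 22 of 23 and 206 of 209. These coSE values lay between 0.957 and 0.991. Car1, a carbonic anhydrase gene, was lower at its intron 1 of 29893 nt, with 311 of 342 uninduced reads spliced (coSE 0.909, 0.874 to 0.935) and 1 read in the induced pool. Its intron 3, also long at 5314 nt, had 173 of 190, while the 2011 nt intron 2 between them had 2 of 17. The 6 deepest also held Pkm intron 1 (coSE 0.979 uninduced and 0.888 induced) and Car2 intron 3 (0.953 and 0.991), whose reads are given below.

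Within a gene, long introns tended to have the higher coSE. Reads were added over the long and over the shorter introns of each gene that had both kinds with at least 10 reads. Of 609 genes in the uninduced pool, the long introns had the higher coSE in 363 (59.6%), the lower in 160 and the same in 86, and the median difference was 0.0198. Of 372 genes in the induced pool, 218 were higher (58.6%), 80 lower and 74 equal, with a median difference of 0.0196. Introns of 1 gene share reads, so these counts are a description. When only the introns next to the long one were used, 42.4% of genes were higher and 33.3% lower in the uninduced pool, and 35.3% higher and 27.5% lower in the induced pool.

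A few genes stood far from the diagonal. S100pbp had 12 of 13 reads spliced at long and 32 of 84 at shorter introns in the uninduced pool, and 11 of 12 and 13 of 59 in the induced pool. Kmt2c, a histone methyltransferase gene, had 10 of 11 and 2 of 14 in the uninduced pool. In the other direction, Larp4, which encodes a poly(A)-binding protein, had 7 of 19 at its long intron and 86 of 92 at shorter ones. Kidins220, a membrane scaffold of neurotrophin signalling, had 0 of 30 and 177 of 192. The long introns of these last 2 genes are among the exceptions described next.

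**Figure D2:**
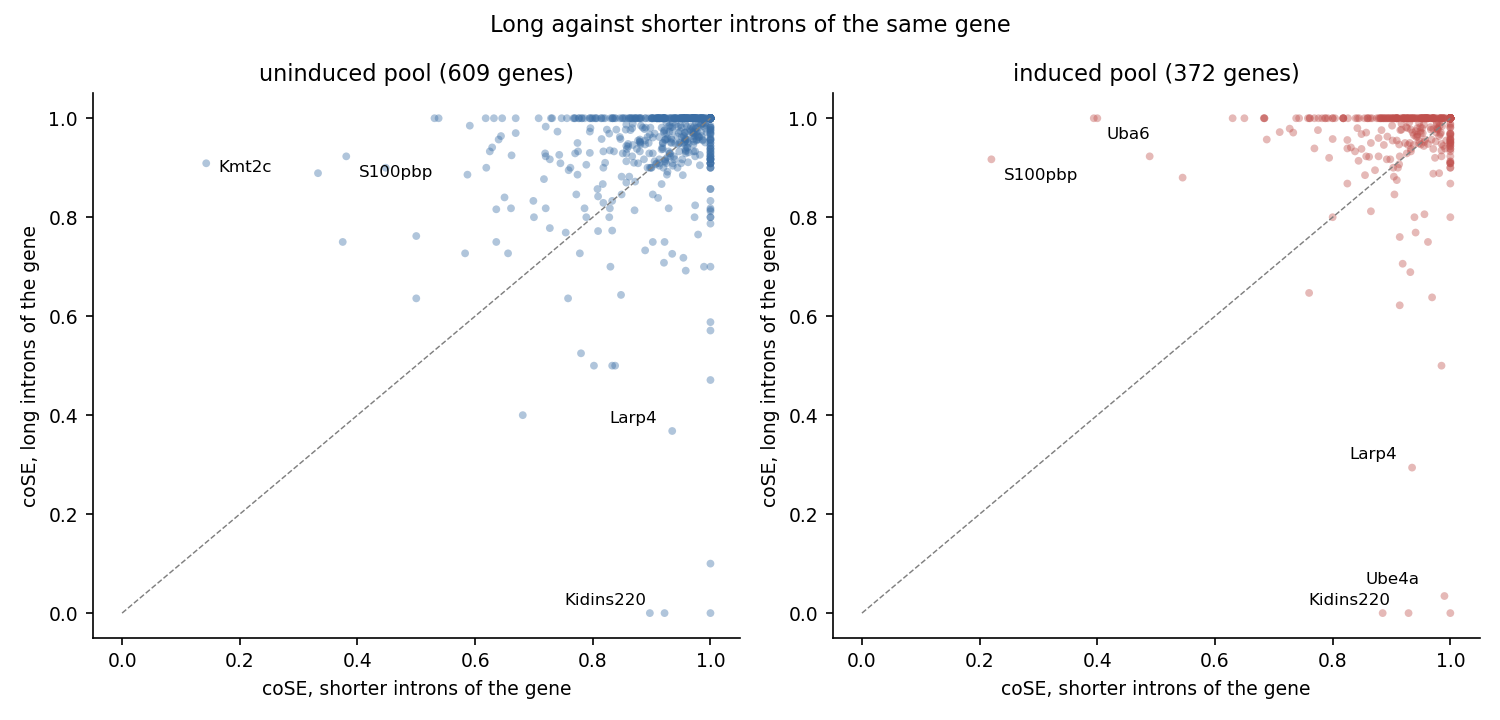
coSE of a gene's long introns (vertical axis) against that of its shorter introns (horizontal axis), reads added within each gene, in the uninduced (left, 609 genes) and induced pool (right, 372 genes); the dashed line is equality. Points above the line, 363 and 218 genes, have the higher coSE at long introns, and Kidins220 lies at 0 on the vertical axis in both pools.

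Unspliced exceptions were few. A coSE of at most 0.5 was found at 22 of 1178 long introns in the uninduced pool (1.87%, 1.24 to 2.81) and at 12 of 707 in the induced pool (1.7%, 0.974 to 2.94). Shorter introns were that low in 9.05% and 8.12% of cases. Among long introns present in every spanning transcript the share was 0.561% and 0.668%, and among those with no other annotated 3′ site within 100 nt it was 1.06% and 0.441%. The exceptions were 29 introns of 29 genes in all, chosen by their coSE, so these values are a description. Of the 29, 7 had 10 reads in both pools and 5 of these 7 were low in both: those of Kidins220, Hbs1l, Gon4l, Larp4 and Ankfy1. The remaining 22 had 10 reads in 1 pool. No spliced read was seen in either pool at 7 introns.

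Intron 1 of Kidins220 (chr12:24975063-24982312, plus strand, 5′ UTR, 7250 nt) had 0 of 30 spliced uninduced reads and 0 of 32 induced ones, with Wilson upper limits of 0.114 and 0.107. Intron 4 of Hbs1l (chr10:21307780-21336975, plus strand, between coding exons, 29196 nt), a ribosome rescue factor gene, had 0 of 22 and 0 of 14. Intron 3 of Kif13b (chr14:64708505-64714073, plus strand, between coding exons, 5569 nt), a kinesin motor gene, had 0 of 7 and 0 of 25. Both pools gave the same reading at each of these introns. Intron 3 of Gon4l (chr3:88846580-88854604, plus strand, 8025 nt), a gene for a nuclear transcription regulator, had 0 of 13 and 0 of 14. Intron 6 of Inpp4b (chr8:81743815-81768093, plus strand, 24279 nt), a phosphoinositide phosphatase gene, had 0 of 18 in the uninduced pool and no read in the induced one. The other introns without a spliced read were Tpd52l2 intron 4, with 13 and 7 reads, and Cabin1 intron 1, with 7 and 10 reads, the latter in the gene of a calcineurin inhibitor.

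Single spliced reads were found at the next group. Intron 1 of Dynlrb1, a dynein light chain gene, had 0 of 15 spliced uninduced reads and 1 of 9 induced ones. Intron 1 of Zfp512 had 1 of 7 and 0 of 14. Intron 3 of Ube4a, a ubiquitin ligase gene, had 1 of 9 and 1 of 29. At each of these, both pools stayed below a coSE of 0.15. Intron 2 of Tpx2, whose protein builds the mitotic spindle, had 1 of 20 and 1 of 5. Intron 10 of Glyr1, a nucleosome-binding factor gene, had 1 of 12 and 0 of 5, and intron 2 of Eapp had 1 of 10 and 0 of 2. Intron 1 of Zfp146 had 2 of 11 and 1 of 3. The remaining exceptions were partly spliced in at least 1 pool. Intron 7 of Ankfy1, a gene for an endosomal protein, had 4 of 21 and 8 of 17, Larp4 intron 1 had 7 of 19 and 5 of 17, and Mdm4 intron 2, in the gene of a p53 inhibitor, had 26 of 46 and 5 of 13.

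**Figure D3:**
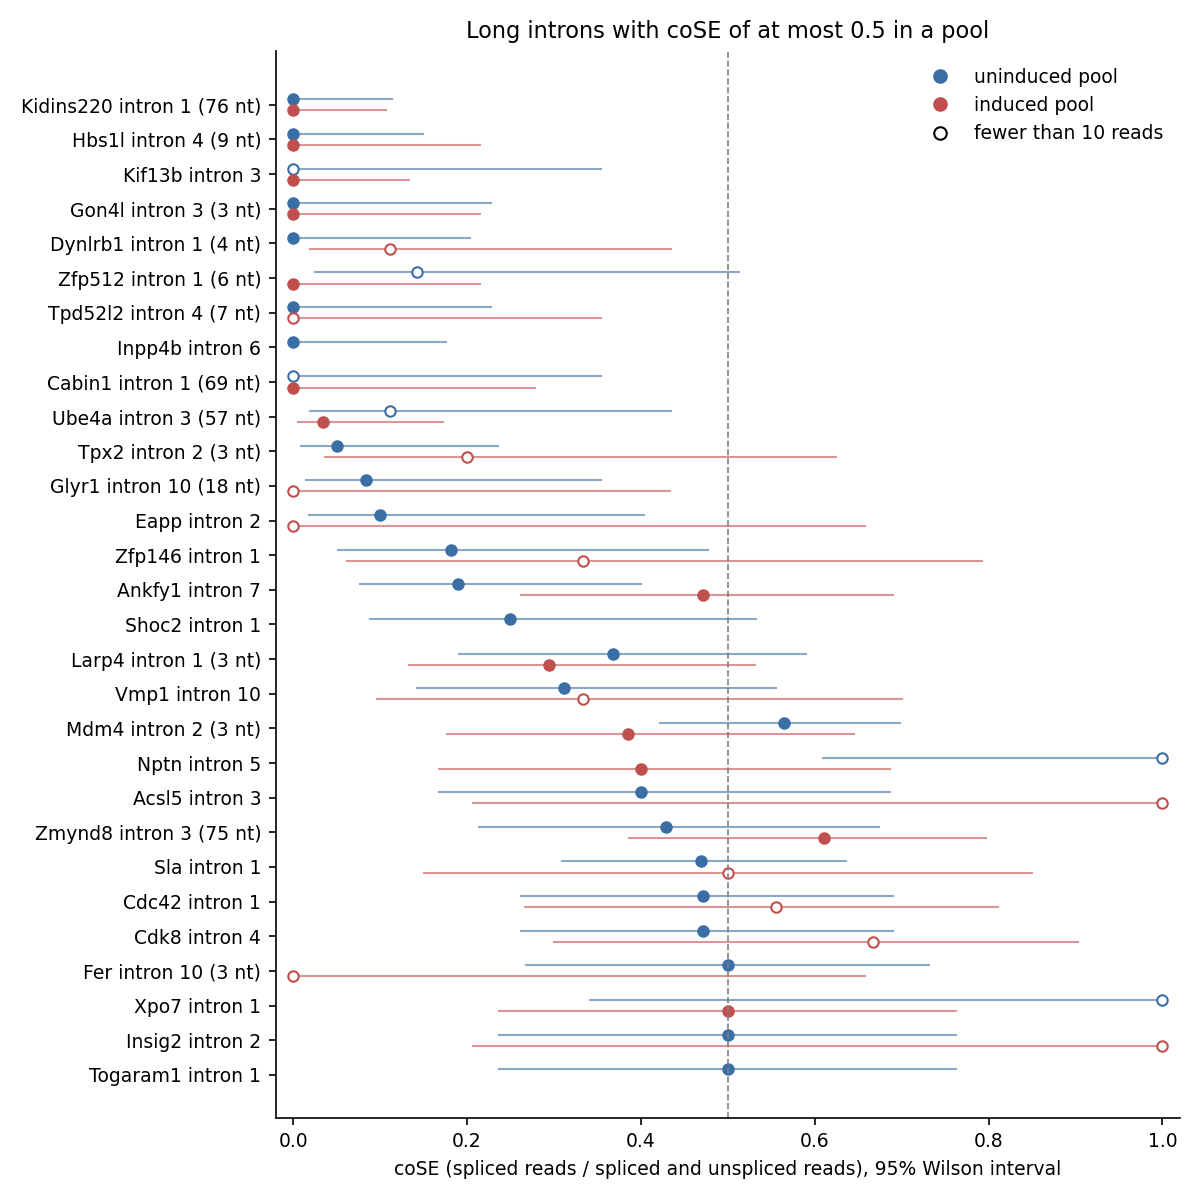
coSE of the 29 long introns with a value of at most 0.5 in a pool with at least 10 reads, in the uninduced (blue) and induced (red) pools, with 95% Wilson intervals; hollow points have fewer than 10 reads, and a distance in brackets is that of another annotated 3′ splice site upstream. The lowest introns sit at 0 in both pools, and 14 of the 29 carry a distance of at most 100 nt.

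Most introns next to an exception had a high coSE. Of 14 upstream neighbours of an exception with at least 10 reads over both pools, 12 had a coSE of at least 0.9, with a median of 1. Of 23 downstream neighbours, 17 did, with a median of 0.97 and the lowest at Vmp1 (0.618). On either side of Gon4l intron 3, intron 2 was spliced in 13 of 13 and intron 4 in 13 of 13 uninduced reads. Around Hbs1l intron 4, intron 3 was spliced in 52 of 53 and intron 5 in 22 of 22 uninduced reads. Downstream of Kif13b intron 3, intron 4 was spliced in 7 of 7 and 25 of 25. Upstream, intron 2 had only 1 and 2 reads, and intron 1 was spliced in 9 of 9 and 28 of 28. Where the reads counted at intron 3 begin therefore cannot be told from these counts. Other introns of Kif13b were low at few reads, such as intron 15 with 1 of 7 and introns 18 and 20 with 3 of 7 each in the uninduced pool. In Inpp4b, intron 6 had 0 of 18 while its 73531 nt intron 8 had 29 of 30 and its 49305 nt intron 13 had 22 of 22 in the same pool. Upstream of it, intron 5 had 1 read, and 1 annotated transcript starts inside intron 6, so where its 18 reads begin cannot be told from these counts.

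What many exceptions shared was a neighbouring 3′ splice site. Another annotated 3′ site, used by a transcript with the same 5′ site, lay 1 to 100 nt upstream of the tabulated one at 14 of the 29 exceptions (48.3%) and at 12 of the 1380 other long introns (0.87%). Read the other way, 14 of 26 long introns with such a site had a coSE of at most 0.5 in a pool (53.8%), against 15 of 1383 without one (1.08%). Among shorter introns the same shares were 51 of 178 (28.7%) and 1045 of 10325 (10.1%). The distance of 100 nt was chosen after the values were seen, and no test is given. A molecule joined at the upstream site keeps the stretch between the sites and is no exact match to the tabulated junction. Whether such reads were counted as unspliced is not given in the sources used here, and the part of the neighbouring site in the low values was not tested.

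By distance, 71.4% of long introns were low at 3 nt, 55.6% at 4 to 20 nt and 40% at 21 to 100 nt. These classes hold only 7, 9 and 10 introns and were not tested. Medians of the lower coSE did not follow that order, at 0.385, 0.0833 and 0.703. Among shorter introns the low shares were 61.9%, 20.8% and 25.9%. With the other site 3 nt upstream, 5 of 7 long introns were low, those of Gon4l, Tpx2, Larp4, Mdm4 and Fer. Tank intron 2 (12 of 14 and 11 of 16 spliced) and Sox6 intron 6 (9 of 14 in the induced pool) were the others. At 4 to 20 nt, 5 of 9 were low: Dynlrb1 at 4 nt, Zfp512 at 6 nt, Tpd52l2 at 7 nt, Hbs1l at 9 nt and Glyr1 at 18 nt. At 21 to 100 nt, 4 of 10 were low: Ube4a at 57 nt, Cabin1 at 69 nt, Zmynd8 at 75 nt and Kidins220 at 76 nt. The tabulated intron was that of a single annotated transcript at 8 of the 26, and all 8 of these were low, against 6 of the 18 where several transcripts share it. A neighbouring upstream site did not always go with a low value: Nusap1 intron 1 (15 nt away) was spliced in 16 of 16 reads in each pool, Nedd8 intron 1 (62 nt) in 22 of 22 and 7 of 7, and Rsu1 intron 4 (33 nt) in 20 of 20 and 4 of 4. Ing5 and Sun1 also had no unspliced read. Neighbouring sites in other places came with fewer low values. With another 3′ site within 100 nt downstream and none upstream, 0 of 22 long introns were low when uninduced and 1 of 14 when induced, which was Nptn intron 5 with 4 of 10 induced reads spliced. With another 5′ site within 100 nt and no such 3′ site, 0 of 41 and 0 of 28 were low.

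**Figure D4:**
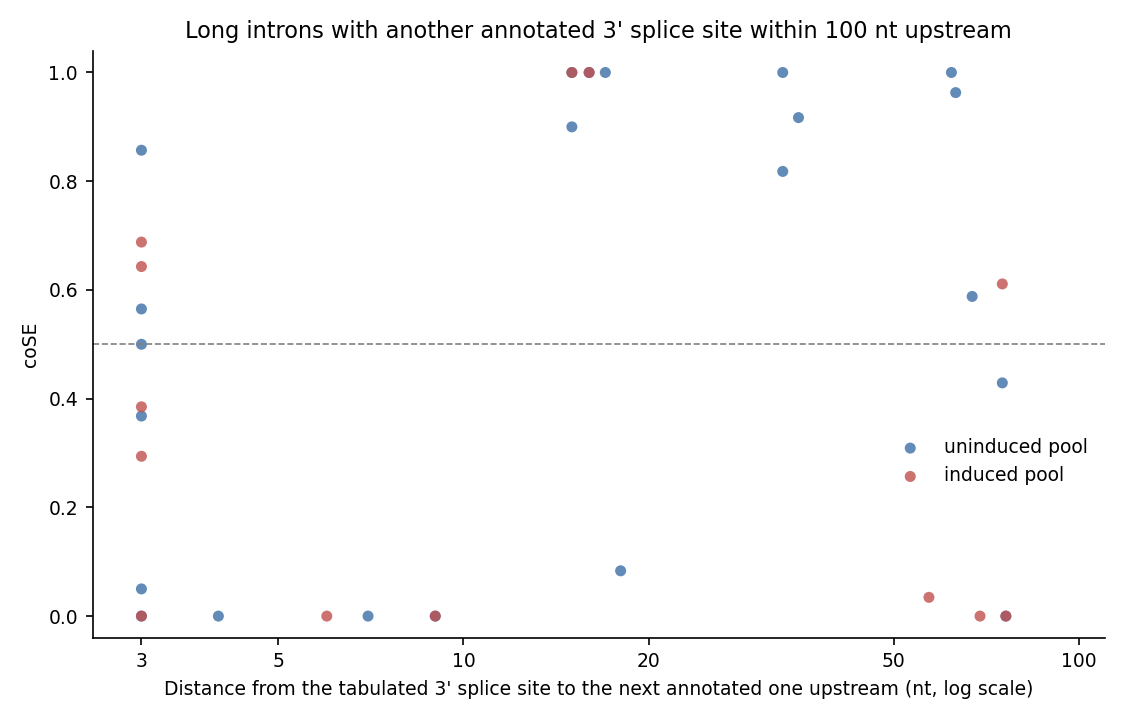
coSE of long introns that have another annotated 3′ splice site 1 to 100 nt upstream of the tabulated one, against that distance in nt (log axis), with 1 point per intron and pool with at least 10 reads, uninduced in blue and induced in red. Of 26 such introns, 14 fall to the dashed line at 0.5 or below in a pool, including 5 of the 7 at 3 nt.

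The deposited 3′ sites were also searched for such pairs of AGs. An intron that ends in AGNAG, where N is any base, read on the gene's strand, has AGs 3 nt apart. It was present at 7 of the 723 members (0.968%, against 0.642% over all introns of the second table). Their median coSE was 0.711 over 6 uninduced introns and 0.385 over 5 induced ones, against 1 for members without the letters. The upstream AG was an annotated 3′ site in 4 of the 7: Tpx2, Larp4, Mdm4 and Tank. In Vps16 intron 1 and Kdsr intron 3 it was not, and these had 15 of 15 and 19 of 19 spliced reads in the uninduced pool. In the remaining one, Ube4a intron 3, the annotated neighbour lies further upstream.

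The other 15 exceptions had no annotated 3′ site that close upstream. Of these 15, 6 are introns present in every annotated transcript that spans them. Kif13b intron 3, Ankfy1 intron 7, Vmp1 intron 10 and Xpo7 intron 1 were among these 6. Annotated transcripts end inside the Kif13b intron (1) and start inside those of Vmp1 (2) and Xpo7 (1), with neither at Ankfy1. The part of such transcripts in the unspliced counts was not tested. Over all 29 exceptions, a transcript ended inside 41.4%, against 21.4% of the other long introns, and started inside 31%, against 23.6%, and 79.3% were missing from at least 1 spanning transcript, against 37%. Xpo7, an export receptor gene needed for nuclear condensation in red cell precursors, had 5 of 10 induced reads spliced at its 59078 nt intron 1 and 64 of 64 at the next intron. A gene annotated inside the intron was found on either strand for 132 members (9.37%). For 70 (4.97%), Eapp and Zfp512 included, it lay on the same strand, and reads of such a gene cannot be told apart from unspliced reads here.

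The deposited splice site scores, taken here as higher for sites nearer the common form, had medians of 9.1 at the 5′ and 9.33 at the 3′ site of long introns and of 8.73 and 8.6 at shorter ones. Of the 34 members with a 5′ score under 5, none of the 31 with 10 uninduced reads and none of the 20 with 10 induced reads had a coSE of at most 0.5. Beside the shares over all long introns, 1.87% and 1.7%, a count of 0 among so few says nothing about weak 5′ sites. Of the 31, 19 were free of unspliced reads in the uninduced pool. Among them, Sptssa intron 1 was spliced in 20 of 20 uninduced reads at a 5′ score of -6.16. The 7 GC sites were spliced too, with 28 of 28 in each pool at Rictor intron 3 and, as the lowest value at 10 reads or more, 15 of 17 at Ankfy1 intron 4 in the uninduced pool (17 of 18 in the induced pool). Ctps2 intron 4 had 22 of 22 and 7 of 8. Of 30 members with a 3′ score under 5, 2 of 27 were low when uninduced and 2 of 19 when induced, against 8 of 610 and 3 of 397 where both scores were at least 5. The low ones were Hbs1l, Tpx2 and Ube4a, each with a neighbouring upstream 3′ site. Nedd4 intron 1, listed with GG at its end, had 57 of 59 and 32 of 33 spliced reads, and Zfp809 intron 1, at a 3′ score of -1.26, had 20 of 20 and 62 of 62.

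The pools were then compared intron by intron. Spliced and unspliced reads of each pool were compared by Fisher's exact test (two-sided, Benjamini-Hochberg adjustment over all 4403 introns with 10 reads in both pools), and 1 of 476 long introns passed 0.05 (0.21%). The background over all introns tested was 1.61%, with 1.25% called lower and 0.363% called higher in the induced pool. At an unadjusted p under 0.05 there were 5 long introns (1.05%), against 7.97% of all introns. A difference of more than 0.2 was seen at 8 of 476 (1.68%), against 12.5% of all introns. coSE was higher in the induced pool at 165, lower at 100 and equal at 211, and 206 of the equal ones had no unspliced read in either pool. Thus 43.3% of long introns stood at the upper end of the scale in both pools, against 21.6% of all introns, which leaves less room for a difference, and the part of this in the lower share of calls was not tested. The median depths of 21 and 16 reads also limit the size of difference that could be detected.

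The intron that passed was intron 1 of Pkm, the pyruvate kinase gene of the last step of glycolysis (chr9:59656650-59665199, plus strand, 5′ UTR, 8550 nt). In the uninduced pool 278 of 284 reads were spliced (coSE 0.979, 0.955 to 0.99), and in the induced pool 87 of 98 (0.888, 0.81 to 0.936). The difference was -0.0911 with an adjusted p of 0.0395 in Fisher's exact test. None of the other 9 introns of the gene passed, and intron 2, the next one, had 261 of 266 and 84 of 87. Without a minimum of reads, which adds introns to the adjustment, the adjusted p was 0.341. Inside this intron 5 annotated transcripts start, and their part in the unspliced count was not tested.

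The other large differences did not pass the adjusted threshold. Intron 10 of Kel, the gene of a red cell surface protein, had 13 of 13 and 11 of 17 spliced reads (adjusted p = 0.448, exact test). Intron 1 of Eef1d, a translation elongation factor gene, had 16 of 16 and 7 of 10, and intron 1 of Capza2, an actin capping gene, had 23 of 24 and 7 of 10. These were the 3 largest differences towards lower values. The largest towards higher values were at Ube2d3 intron 2, a ubiquitin-conjugating enzyme gene, with 9 of 13 and 12 of 12, Ankfy1 intron 7, and Lnpep intron 9, a peptidase gene, with 13 of 17 and 11 of 11. Ampd3 intron 2, in the AMP deaminase gene of red cells, had 12 of 15 and 48 of 48 (adjusted p = 0.305, exact test). Car2 intron 3 had 81 of 85 and 230 of 232 (adjusted p = 0.606, exact test).

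**Figure D5:**
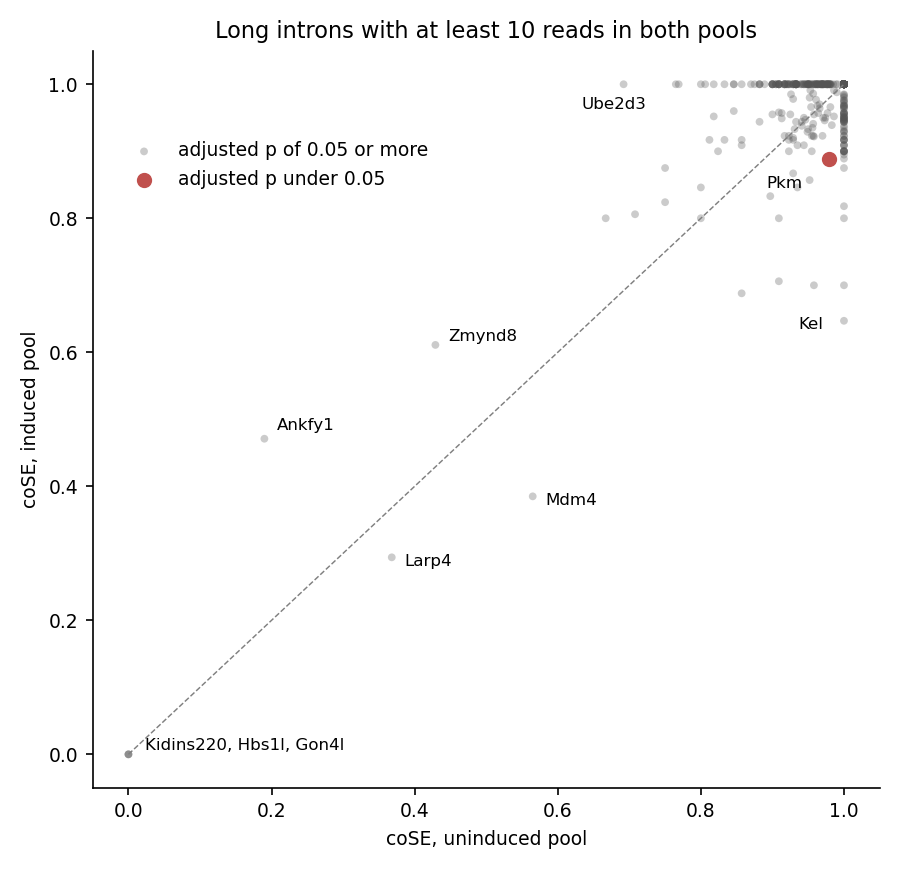
coSE in the induced pool (vertical axis) against the uninduced pool (horizontal axis) for the 476 long introns with at least 10 reads in both, with the line of equality dashed. Pkm intron 1 (red) is the 1 intron with an adjusted p under 0.05, most points crowd near 1 on both axes, and Kidins220, Hbs1l and Gon4l coincide at 0.

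Genes of the red cell were represented by 18 long introns of 9 genes on a list of 20. Of these, 5 could be tested and 0 passed, and 2 were among the exceptions, in Xpo7 and in Hbs1l, which the list holds although its protein acts in ribosome rescue. Beside the shares over all introns, 1.61% called, and over all long introns, 1.87% and 1.7% low, a count of 0 in any of the lists below says nothing about the list. Median coSE was 0.943 over 6 introns when uninduced and 0.929 over 17 when induced, against 0.92 and 0.944 at shorter introns of the same list and 1 over all long introns. The membrane skeleton genes differed among themselves in the induced pool. Ank1 intron 2 stood at 206 of 209, Tmod1 at 30 of 30 and 21 of 21, while Epb41, the protein 4.1 gene, had 12 of 17 at its 6212 nt intron. Genes for RNA-binding and splicing proteins had 16 long introns in 14 genes with medians of 1 in both pools. None of these was low, and 0 of 6 tested passed. Ewsr1 had 100 of 105 and 99 of 101 spliced reads, and Sf3b1, a core part of the spliceosome, had 61 of 61 and 29 of 29. Tra2b, a splicing regulator, had 24 of 30 and 22 of 26. Chromatin genes had 21 long introns in 11 genes, also with medians of 1 and none low, and 0 of 3 tested passed. Dnmt1, the maintenance DNA methyltransferase gene, had 72 of 74 and 35 of 37. Of the blood cell regulators, 2 of 34 had a member, Gfi1b with 21 of 23 and 37 of 39 and Ikzf1 with 7 of 10 and 3 of 3, and 0 of 1 tested passed.

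Splicing intermediates, understood as RNA cut at the 5′ site and not yet joined, were given as NIC, the count of intermediates divided by intermediates plus spliced reads. NIC was above 0 at 155 of 627 long introns in the uninduced pool (24.7%, 21.5 to 28.2) and at 67 of 287 in the induced pool (23.3%, 18.8 to 28.6). Over shorter introns it was above 0 at 37.6% and 39.3%, at the same median of 14 reads. With the reads of all long introns added, NIC was 2.45% and 2.11%, against 2.73% and 4.57% at shorter introns. Between the pools, 0 of 191 long introns passed the adjusted threshold in Fisher's exact test, and 0 had an unadjusted p under 0.05. The background was 0.0981%, or 2 of 2039 introns. The smallest unadjusted p was 0.0582, at Mga intron 2 (exact test, adjusted p = 1).

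Hbs1l intron 4 had the highest NIC of any member, at 1, with 13 intermediates and 0 spliced reads in the uninduced pool. With 0 spliced reads, any intermediate makes NIC 1, so the value adds nothing to the low coSE. The same 5′ site also serves an annotated 3′ site 9 nt upstream, and an intermediate does not show which 3′ site it would join. The 13 intermediates therefore cannot be assigned to the tabulated intron alone. Of the 12 exceptions in the second table, Hbs1l intron 4 had the most intermediates. Its 3′ score of -7.96 belongs to the tabulated site shown above. The next values were found at introns with few unspliced reads. Mga intron 2, in a gene of a MAX-binding repressor, had 7 intermediates and 14 spliced reads in the induced pool (NIC 0.333), and 2 and 24 in the uninduced pool. Ogdh intron 2, in a citric acid cycle enzyme gene, had 4 and 10 in the uninduced pool (NIC 0.286). Hspa14 intron 3 had 4 and 10, and Adk intron 7, in the adenosine kinase gene, had 4 and 11 (NIC 0.267). The coSE of these 4 introns was at least 0.929 in each pool with 10 reads, so a high NIC and a coSE near 1 occurred together.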

How the data were processed

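Members and gene lists were chosen with earlier results of these data known. Per the file headers, the first table deposited by the authors holds raw read counts of exactly spliced and of merged unspliced reads per intron and condition. The second holds counts of spliced reads and intermediates, NIC as a deposited fraction, the percent GC as deposited, and the splice site scores, also as deposited. The submitters' processing notes list cutadapt, minimap2, SAMtools, bedtools and Bowtie and the builds mm10 and dm3, with no roles. The counting rule and the scoring program are not given in the sources used here. PCR was used, so intervals cover counting error only.

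Computed here were coSE, its Wilson intervals (95%), length, neighbours and annotated splice sites (GENCODE mouse release 21, GRCm38, positions 1-based) and two-sided Fisher's exact tests per intron with Benjamini-Hochberg adjustment (SciPy 1.17.1, Python 3.11.15, pandas 2.3.3), checked on simulated data. Introns needed 10 reads in a pool. Total observations over all introns were 416379 uninduced and 279371 induced. In 61 members the transcript version differed from that release. Intron numbers count from the 5′ end of the tabulated transcript. Named introns were the 15 with the lowest coSE, those past the threshold or with an unadjusted p under 0.05, the 3 largest rises and falls, the 6 longest, the 6 deepest, the 5 with the highest NIC, and list members. Introns named for their neighbours, splice site letters or neighbouring 3′ sites were chosen after their values were seen. Alternatives were other read minimums, lengths and transcripts, a chi-square test, neighbouring introns and, added after seeing the data, introns with no other 3′ site nearby. DNA sequence beyond the deposited sites was not used here. One listed gene is not reported here.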

Additional observations from a re-analysis of the deposited data

How the results depend on the processing

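No paired analysis was possible because the tables give 1 pooled line per intron and condition, and leaving out replicates was not run for the same reason. The count of long introns past the threshold between pools was 1 in the report, 1 with a minimum of 20 reads, with a chi-square test and without introns that have another 3′ site within 100 nt, and 0 with a length over 10000 nt, with introns in every transcript (both of which leave Pkm out) and with no minimum of reads, where Pkm had an adjusted p of 0.341 (exact test). The share with no unspliced read, 58.7% and 68.7%, was 51.5% and 56.8% with 20 reads, and 63.7% uninduced with introns in every transcript. The share with a coSE of at most 0.5, 1.87% and 1.7%, was 0.561% and 0.668% with introns in every transcript, 1.06% and 0.441% without another 3′ site nearby, and 0.934% and 0.99% at a limit of 0.2. Adding the reads of all long introns gave a coSE of 0.954 and 0.963 in place of the median of 1. Genes whose long introns had the higher coSE, 59.6% and 58.6%, made up 64.2% and 64.3% with 20 reads, 51.6% induced with a length over 10000 nt, and 42.4% and 35.3% against neighbouring introns, in each case more than those with the lower coSE. The share with NIC above 0, 24.7% and 23.3%, was 33.2% and 33.1% with 20 reads in the second table. The cause of these shifts was not tested. Of the values under an alternative, single introns aside, 32 stayed within the counting interval or within 1.5 times the count, the 0.99% among them. The remaining 20 moved further than that. For single introns the alternatives changed the test or its adjustment and not the reads, so they do not bear on the direction. Limits are the single pool per condition, the unstated rule for unspliced reads, and depth, since at a median of 15 reads a share of unspliced reads below 20% could go unseen. A further limit is read length, whose part in the comparisons of long with shorter introns was not tested.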

Other observations

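Some genes held many long introns, and in several of them nearly every read was spliced at each. Of 835 genes with a long intron, 35 had at least 5. Bcas3, with 11 long introns that add up to 144149 nt, had 435 of 442 reads spliced over them in the uninduced pool and 194 of 196 in the induced pool, and its lowest intron stood at 0.917. Adk, with 9 long introns of 369990 nt in all, had 190 of 191 and 17 of 17. Gphn, with 5 of 254132 nt, had 54 of 54 and 10 of 10. The sums hide no low intron in these 3 genes, whose lowest values lay between 0.917 and 1.

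Other genes of this kind varied more among their long introns. Inpp4b, with 12 long introns of 284676 nt in all, had 226 of 248 spliced uninduced reads, and 18 of the 22 unspliced ones lay in intron 6. Vmp1, which encodes a membrane protein needed for autophagy, had 6 long introns with 85 of 100 and 87 of 93, and each had an unspliced read in at least 1 pool. Sox6, a transcription factor gene with 6 long introns of 261795 nt, had 9 of 9 uninduced and 121 of 129 induced reads spliced, with its lowest intron at 0.643.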
